A study of Mus musculus with 20 samples.

Results

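The stretches described here are the promoter windows of 2 clusters of KRAB zinc finger genes in the mouse genome (build GRCm39), one on chromosome 2 and one on chromosome 4. A window belonged to a cluster when its start lay between 174900000 and 177950000 on chromosome 2 or between 145000000 and 147800000 on chromosome 4. This rule used position alone, with no methylation value, and it gave 111 of the 54034 windows in the table, 40 on chromosome 2 and 71 on chromosome 4. DNA methylation had been measured by bisulfite sequencing of single blastocysts, in 10 control embryos (replicates 1 to 10) and 10 embryos of the Padi6-mutant genotype (replicates 11 to 20). Per the series' design text the mutant embryos came from oocytes that carried the Padi6 P620A allele and had got past the block at the 2-cell stage, so the mutation was maternal, and the embryos that stopped at the block were not measured. Strain, mother, litter, sex and batch are not stated in the labels, so embryos of a group may share a mother. P-values therefore measure the spread between these embryos.

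KRAB zinc finger proteins bind DNA, most often within retroelements, through arrays of zinc fingers. Their KRAB domain recruits the co-repressor TRIM28 (KAP1), which brings the methyltransferase SETDB1 to place the repressive mark H3K9me3. The genes themselves sit in large arrays of recent duplicates, and such arrays are packed in H3K9me3 heterochromatin. After fertilisation DNA methylation is lost over most of the genome, while UHRF1 brings the maintenance enzyme DNMT1 to replicated DNA, where it copies the methylation that remains. PADI6 is made in the oocyte as part of the subcortical maternal complex and is handed on to the embryo. The question addressed is whether promoters in these arrays differ in methylation at the blastocyst stage when the egg carried the mutation.

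The gene table at hand (RefSeq, GRCm38.p6) is on another build than the windows, so no window could be tied to a gene, and genes are named here only to show what the stretches hold. All 21 KRAB zinc finger symbols listed for chromosome 2, such as Zfp931 and Zfp971, were found on that chromosome. The run of genes they span there has 68 entries, of which 29 are protein-coding genes, 15 of them in the list, and 24 are pseudogenes. Of 28 symbols listed for chromosome 4, 23 were found, and because several are older names they stand for 16 genes. Their run has 77 entries, of which 52 are pseudogenes and 18 are protein-coding genes, 15 of them in the list.

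Promoters of the listed genes range from loosely related to near copies of each other within a cluster. The 16 promoters at hand for chromosome 2 (each 300 bases, from 250 before to 50 after the gene start) shared 55.7% to 97.3% of bases per pair, with a median of 82% over 120 pairs, and 37 pairs shared at least 90%. The 12 promoters for chromosome 4 shared 51% to 99.7%, with a median of 73.3% over 66 pairs, and 4 pairs shared at least 90%. Between the clusters no pair of 192 reached 90%, and the median was 58.7%, below the median within either cluster. The promoters also hold few CpGs, the sites that carry methylation. The median was 3.5 CpGs per 300 bases on chromosome 2 (0 to 5) and 5 on chromosome 4 (3 to 16), against 7 over all 32851 promoters of the table. The closest pair of each cluster is printed 5′ to 3′ on the strand of the gene (RefSeq, GRCm38.p6, Gm14326 and Gm14434 on the minus strand, Rex2 and Zfp600 on the plus strand) to show how alike the copies are and where methylation can sit. Capitals mark the CpGs.
Gm14326: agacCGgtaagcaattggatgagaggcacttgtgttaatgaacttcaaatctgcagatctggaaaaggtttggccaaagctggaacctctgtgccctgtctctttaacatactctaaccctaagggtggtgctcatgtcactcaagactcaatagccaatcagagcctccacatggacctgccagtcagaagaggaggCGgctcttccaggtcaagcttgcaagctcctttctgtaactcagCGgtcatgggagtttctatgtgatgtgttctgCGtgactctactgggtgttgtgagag
Gm14434: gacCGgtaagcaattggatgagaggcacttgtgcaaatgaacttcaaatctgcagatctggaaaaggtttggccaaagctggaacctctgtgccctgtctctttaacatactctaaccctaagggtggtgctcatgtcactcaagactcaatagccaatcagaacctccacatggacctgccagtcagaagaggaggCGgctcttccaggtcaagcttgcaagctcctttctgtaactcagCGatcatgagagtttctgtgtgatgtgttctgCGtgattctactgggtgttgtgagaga
Rex2: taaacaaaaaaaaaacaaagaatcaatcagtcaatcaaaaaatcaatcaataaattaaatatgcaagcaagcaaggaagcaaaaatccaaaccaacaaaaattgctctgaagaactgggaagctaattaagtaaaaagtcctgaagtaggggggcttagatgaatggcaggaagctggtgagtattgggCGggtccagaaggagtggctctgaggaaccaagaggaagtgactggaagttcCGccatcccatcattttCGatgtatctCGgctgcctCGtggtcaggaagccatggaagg
Zfp600: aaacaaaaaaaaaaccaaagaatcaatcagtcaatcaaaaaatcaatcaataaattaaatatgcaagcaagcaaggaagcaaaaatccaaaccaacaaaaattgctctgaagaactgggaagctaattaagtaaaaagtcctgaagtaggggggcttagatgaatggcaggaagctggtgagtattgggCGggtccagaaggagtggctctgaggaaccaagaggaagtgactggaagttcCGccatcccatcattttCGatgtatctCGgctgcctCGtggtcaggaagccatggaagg
The chromosome 2 pair carries 4 CpGs in each copy and the chromosome 4 pair 5. The CpGs of the 3500 bp windows themselves were not counted, so any effect of their number on the levels was not tested.

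All 111 windows had a value in at least 1 embryo, but few had values in many. Each window is 3500 bp long. The 40 windows on chromosome 2 lie between 174901229 and 177761267, do not overlap, and leave a stretch of 1.38 Mb without a window from 175020664 to 176397121. The 71 windows on chromosome 4 lie between 145041235 and 147790010, and their widest empty stretch is 0.396 Mb. Some of them overlap, and keeping the first window of each overlap leaves a set of 64. On chromosome 2, 221 of 800 pairs of window and embryo had a value (27.6%), on chromosome 4 606 of 1420 (42.7%), and over the 53923 windows outside both clusters 45.5%. Coverage was thus lowest on chromosome 2. The share of windows with a value was below that of the whole table in 20 of 20 embryos for chromosome 2 and in 15 of 20 for chromosome 4.

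The groups differed in coverage. Over the whole table the number of windows read per embryo ran from 4984 to 46950 in controls (median 37253.5) and from 2875 to 43812 in mutants (median 12331.5). On chromosome 2 the number ran from 0 to 31 in controls (median 19) and from 0 to 24 in mutants (median 3). On chromosome 4 the counts were 6 to 57 (median 44) in controls and 3 to 52 (median 19.5) in mutants. Embryos with a value in at least 25000 windows of the table are called densely covered below, 6 controls (replicates 1 to 5 and 10) and 3 mutants (11, 12 and 14). They had a value in 54.4% of window and embryo pairs on chromosome 2, 70.7% on chromosome 4 and 78.2% elsewhere. In the 11 sparsely covered embryos these shares were 5.68%, 19.7% and 18.8%. Control embryo 9 and mutant embryo 17 had no value on chromosome 2, which left 9 embryos per group there. Read depth is not in the table, so no interval for counting error can be given. Promoter identity and coverage were both measured, but whether near-identical copies account for the low coverage was not tested.

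**Figure D1:**
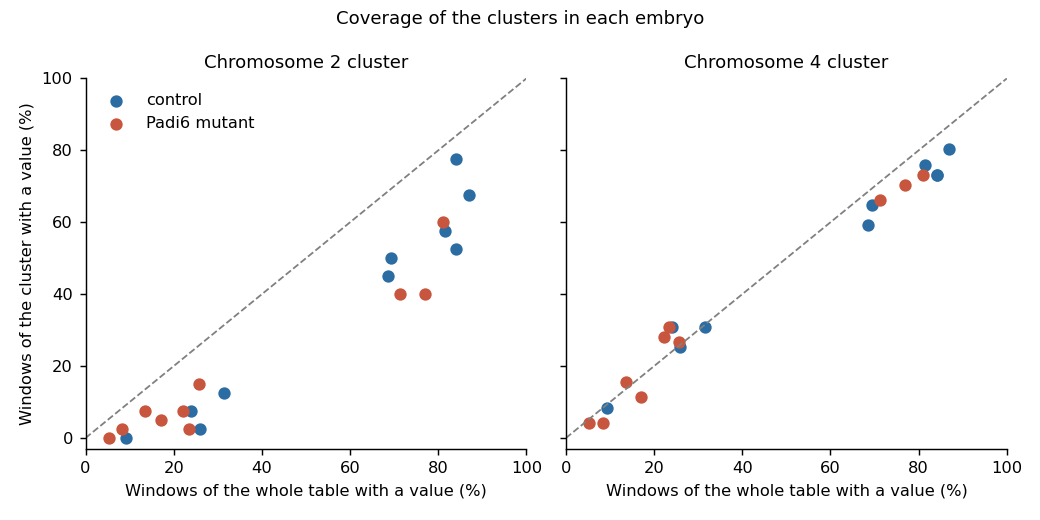
Share of cluster windows with a value in each embryo (vertical axis, %) against the share of all windows with a value in that embryo (horizontal axis, %), for chromosome 2 (left) and chromosome 4 (right); each point is 1 embryo and the dashed line marks equal shares. All 20 embryos lie below the line for chromosome 2 and 15 of 20 for chromosome 4.

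In control blastocysts both clusters were methylated to about the same degree as the rest of the table. The level of an embryo is the plain mean of its windows. The chromosome 2 level was 15.3% ± 7.93 (SD, n = 9), with a lowest value of 5.13%, a median of 14% and a highest of 30%. The chromosome 4 level was 18.1% ± 7.51 (SD, n = 10), from 12.6% through a median of 15.7% to 36.4%. All other windows stood at 15.4% ± 2.39 (SD, n = 10) in the same embryos. Among 803 regions of like size (the 2 clusters and 3 Mb tiles of the remaining windows, each with at least 20 windows) the control level of chromosome 2 ranked 397 from the top and that of chromosome 4 ranked 198, against a median of 15.2%. The clusters therefore sat in the middle and upper part of the genome's promoter regions. Control embryos 8 and 9, at 36.4% and 25.9% on chromosome 4, had 18 and 6 windows there, and the 6 densely covered controls gave 15.0% ± 2.39 (SD) on chromosome 4 and 13.3% ± 6.18 (SD) on chromosome 2.

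Single windows were more uneven on chromosome 2 than their mean shows. Of 11 chromosome 2 windows with a value in at least 5 controls, 4 had a control mean under 5%, 3 lay from 5% to 20%, 3 from 20% to 50% and 1 at 50% or more. Of 42 such windows on chromosome 4 the counts were 4, 23, 15 and 0. Elsewhere, over 39732 windows, 31.2% were under 5%, 41.3% from 5% to 20%, 24.7% from 20% to 50% and 2.73% at 50% or more. Most chromosome 4 promoters were thus at a low or middle level, with a smaller share near 0 than in the rest of the table, a description with no test. Values of exactly 0 made up 58.4% of the 149 control values on chromosome 2, 36.4% of the 371 on chromosome 4 and 45% elsewhere.

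On chromosome 2 the mutant embryos had a lower mean level than the controls, but the difference did not pass the threshold. The mutant level was 6.26% ± 7.46 (SD, n = 9), with a lowest value of 0%, a median of 2.19% and a highest of 19%. The difference was -9.05 percentage points (SE 3.64, 95% interval -16.7 to -1.45), which puts the mutant mean at 40.9% of the control mean. Its unadjusted p was 0.0220 and its adjusted p 0.314 (limma over 803 regions, Benjamini-Hochberg). Over those 803 regions 1 passed the adjusted threshold of 0.05 (0.125%), and 104 (13%) were under 0.05 before adjustment, 102 of which were lower in mutants. The groups overlapped: 8 of 9 mutant embryos were below the control mean, 5 of 9 were below the lowest control, and mutant embryo 19 at 19% was above 5 controls.

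The chromosome 2 difference was smaller where coverage was better. The mutant embryos at exactly 0% (13, 15, 18 and 20) had a value in 1, 3, 1 and 3 windows of the cluster. The 3 densely covered mutants stood at 12.3% (embryo 11, 16 windows), 2.19% (embryo 12, 16 windows) and 14.5% (embryo 14, 24 windows). The 6 densely covered controls stood at 14%, 7.15%, 13.6%, 19.6%, 20.1% and 5.13% (embryos 1 to 5 and 10, with 18 to 31 windows). Of the dense mutants only embryo 12 was below all of these controls, and the other two lay among them. Within densely covered embryos the difference was -3.59 points (limma, adjusted p = 0.702, n = 6 and 3), within sparsely covered embryos it was -14.9 points (adjusted p = 0.732, n = 3 and 6). Weighting each embryo by its windows gave -4.32 points (adjusted p = 0.608), and embryos with at least 5 windows gave -3.64 (adjusted p = 0.745, limma).

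On chromosome 4 the group means were close, and 1 sparsely covered embryo set much of the mutant mean. The mutant level was 17.6% ± 17.9 (SD, n = 10), with a lowest value of 3.70%, a median of 13.1% and a highest of 66.7%. The difference was -0.567 points (SE 5.77, 95% interval -12.5 to 11.4, limma, adjusted p = 0.981). Mutant embryo 17, the highest, had a value in 3 of the 71 windows, and without it the difference was -6.02 points (adjusted p = 0.444, limma). Embryos with at least 5 windows gave -4.97 points (adjusted p = 0.459), and weighting by windows gave -2.13 (adjusted p = 0.717, limma). Of the 10 mutant embryos 8 were below the control mean and 5 below the lowest control, and the other 5 lay within the control range or above it. The 3 densely covered mutants stood at 13.9%, 8.20% and 20.2% (embryos 11, 12 and 14), and the 6 densely covered controls between 12.6% and 18.4%. Embryo 12 thus lay below all densely covered controls and embryo 14 above all of them, and the mean difference there was -0.870 points (adjusted p = 0.918, limma). The interval of the whole comparison is wide enough to hold a change of either sign.

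**Figure D2:**
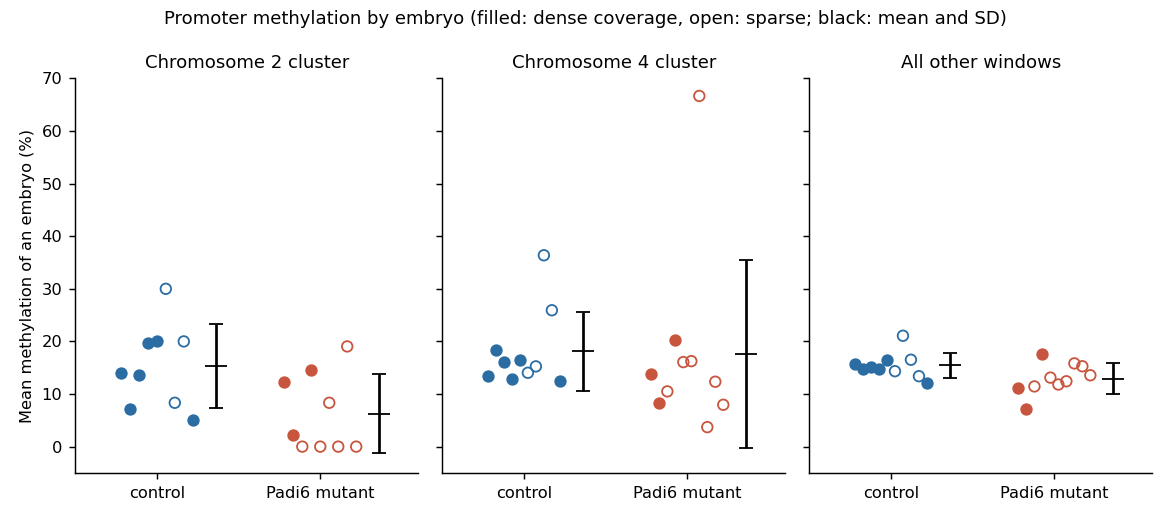
Mean methylation of each embryo (vertical axis, %) over its windows in the chromosome 2 cluster, the chromosome 4 cluster and all other windows; filled points are densely covered embryos, open points sparsely covered ones, and black marks show the mean and SD of a group. On chromosome 2, 5 mutant embryos lie below the lowest control of 5.13%; on chromosome 4 mutant embryo 17 stands alone at 66.7%.

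The whole table was also lower in mutants, and relative to it neither cluster passed the threshold. Windows outside both clusters averaged 15.4% ± 2.39 in controls and 12.9% ± 2.91 in mutants (SD, n = 10 each). Of the 803 regions 584 (72.7%) had a lower mean in mutants, with a median difference of -2.51 points. A difference at least as low as that of chromosome 2 was seen in 83 regions, the cluster included, and one at least as low as that of chromosome 4 in 559. Each embryo's regional means were then taken relative to its own mean over the windows outside both clusters. On that scale chromosome 2 stood at -0.347 points in controls and -6.72 in mutants, a difference of -6.37 (SE 3.61, 95% interval -13.9 to 1.18, limma, adjusted p = 0.684). Chromosome 4 stood at 2.71 points in controls and 4.66 in mutants, a difference of 1.94 (SE 5.87, 95% interval -10.3 to 14.1, adjusted p = 0.955, limma). Without mutant embryo 17 the chromosome 4 difference was -3.57 (2.71 against -0.854, adjusted p = 0.777, limma). With at least 5 windows per embryo, which leaves out mutant embryos 17 and 18, it was -2.16. It was 2.04 in densely covered embryos, without embryo 17, and -0.851 in sparsely covered embryos, with it. The sign was therefore not stable. With each embryo left out it was kept in 19 of 20 fits and turned only without embryo 17. The dense and sparse fits also differ in their controls, so the part of embryo 17 in the sign was not tested. In the relative fit over all embryos 1 of 803 regions passed (0.125%), and 53 (6.60%) had an unadjusted p under 0.05. In densely covered embryos the relative difference of chromosome 2 was -0.688 points (adjusted p = 0.967, limma). The remainder of each chromosome was lower too: chromosome 2 outside the cluster went from 14% ± 2.03 to 12.7% ± 3.03 and chromosome 4 from 14.8% ± 2.97 to 12.7% ± 3.33 (SD, n = 10 each).

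**Figure D3:**
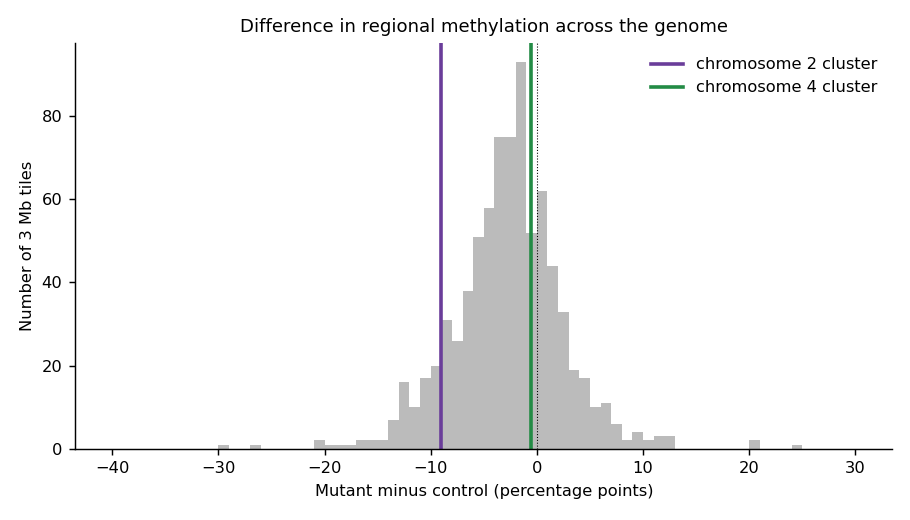
Number of 3 Mb tiles (vertical axis) by their mutant minus control difference in mean methylation (horizontal axis, percentage points); vertical lines mark the chromosome 2 cluster at -9.05 and the chromosome 4 cluster at -0.567, and the dotted line marks 0. Both clusters lie within the spread of the tiles, whose median lies below 0.

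No difference between the clusters in their response was shown. The level of chromosome 2 minus that of chromosome 4 in the same embryo was -1.97 points ± 9.91 in controls and -5.87 ± 6.27 in mutants (SD, n = 9 each). The groups differed by -3.90 points, with a two-sided exact permutation p of 0.338. Without control embryo 6 (5 windows on chromosome 2) the difference was -1.66 points (exact permutation p = 0.631). Embryos low in one cluster were not shown to be low in the other. Across 9 controls Pearson's r was 0.167 (exact permutation p = 0.692) and Spearman's rho 0.217 (p = 0.581). Across 9 mutants r was 0.556 (exact permutation p = 0.122, adjusted over both groups 0.244) and rho 0.557 (p = 0.123, adjusted 0.245). Without the 2 embryos of each group farthest from its median on chromosome 2, r was 0.311 and 0.528 (n = 7 each). Distance from the median on chromosome 4 was not used in that choice. The 2 levels of an embryo come from 1 library and share its depth.

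Zero values were more frequent in mutants in both clusters and elsewhere. On chromosome 2, 51 of 72 mutant values were exactly 0 (70.8%, against 58.4% in controls), and 10 (13.9%, against 14.8%) were at least 50%. On chromosome 4, 111 of 235 mutant values were 0 (47.2%, against 36.4%), and 28 (11.9%, against 11.3%) were at least 50%. In the other windows the share of zeros was 54.5% in mutants and 45% in controls. High values were therefore about as common in both groups within the clusters, and the shares, which pool embryos of unequal coverage, were not tested. The part of coverage in the share of zeros was not tested either: zeros made up 41.8% ± 6.91 of the values of densely covered controls (n = 6) and 65.7% ± 6.10 of those of sparsely covered controls (n = 4) in the windows outside the clusters (SD).

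Of the 111 windows, 32 on chromosome 2 and 62 on chromosome 4 had a value in both groups, and 12 and 42 had at least 3 embryos of each group with a value and were tested. None passed the adjusted threshold in limma over 37645 windows, of which 14 passed (0.0372%). At an unadjusted p under 0.05 there was 1 member window, on chromosome 2, and 2166 windows of the table (5.75%). An exact rank-sum test over the same windows called 0 at the adjusted threshold. It had 2 of the 54 tested members and 1746 windows in all under an unadjusted 0.05. Member windows had at most 9 controls and 7 mutants. With so few embryos the smallest possible rank-sum p is too large to pass readily over 37645 windows, so that 0 decides nothing. Of the tested windows 7 of 12 on chromosome 2 were lower in mutants (median difference -1.93 points) and 22 of 42 on chromosome 4 (median -0.735), against 55.9% of all tested windows (median -1.07). Differences ran from -60.7 to 15.1 points on chromosome 2 and from -30.0 to 17 on chromosome 4. Groups without overlap were seen in 1 of the 12 chromosome 2 windows and in 0 of the 42 on chromosome 4, against 507 of the 37645 tested windows (1.35%), 384 of which were lower in mutants (1.02%). The count of 1 among 54 tested members is near that background.

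The window without overlap was chr2:174992791-174996290, near the start of the chromosome 2 cluster and the only one of its well-covered windows with a control mean above 50%. The 6 controls with a value there were at 80% (embryo 1), 71.4% (embryo 2), 82.6% (embryo 3), 75% (embryo 4), 84.2% (embryo 5) and 26.1% (embryo 10). The 4 mutants were at 0% (embryo 12), 20% (embryo 14), 16.7% (embryo 16) and 0% (embryo 19). Every control was above every mutant, and control embryo 10 stood apart from the other 5 controls. The means were 69.9% ± 22 (SD, n = 6) and 9.17% ± 10.7 (SD, n = 4), a difference of -60.7 points (SE 11.3). Its unadjusted p was 0.000395 and its adjusted p 0.229 (limma), so it did not pass. Without control embryo 10, the control nearest the mutants, the difference was -69.5 points with an adjusted p of 0.0117 (limma), which passes. No other of the 20 fits with an embryo left out passed, and their adjusted p went up to 0.397 (limma). The exact rank-sum p with all embryos was 0.00952 (adjusted 1). That is the smallest p this test can give for 6 and 4 embryos, so its adjusted value decides nothing. All 6 controls were densely covered, as were mutants 12 and 14, while mutants 16 and 19 were sparsely covered. Leaving this window out, an alternative chosen after its values were seen, gave a chromosome 2 difference of -7.86 points (adjusted p = 0.380, limma).

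The 5 other named chromosome 2 windows did not separate the groups. At chr2:175017165-175020664 control levels were 3.97% ± 6.85 (SD, n = 6) and all 3 mutants were at 0. At chr2:176763113-176766612 controls were at 3.69% ± 7.38 (SD, n = 8) and mutants at 12.5% ± 25.0 (SD, n = 4), the latter from 1 embryo at 50% and 3 at 0. At chr2:177757768-177761267, the window with the most mutant values, levels were 2.45% ± 4.33 and 2.86% ± 6.39 (SD, n = 5 each). Control means were thus under 5% in these 3 windows, and the median of each group was 0. At chr2:177153526-177157025 controls were at 50%, 7.14%, 0% and 8% and mutants at 13%, 0%, 50% and 0%. At chr2:177623994-177627493 controls were at 0%, 0%, 0%, 16.7% and 100% and mutants at 0%, 0%, 50% and 0%. In both windows a single high embryo per group carried the mean, and the groups overlapped.

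On chromosome 4 the named windows ranged from 0.455% to 33.9% in their control means, and the groups overlapped in each. The window with values in the most embryos, chr4:147170942-147174441, was at 6.29% ± 7.13 in controls (SD, n = 9, 0% to 22.2%) and 8.84% ± 10.9 in mutants (SD, n = 7, 0% to 30%), limma adjusted p = 0.884. The windows with the highest control means were chr4:145413412-145416911 with 33.9% ± 25.3 (SD, n = 7), chr4:147604825-147608324 with 32.9% ± 35.5 (SD, n = 8) and chr4:145170310-145173809 with 32.5% ± 11.4 (SD, n = 6). Their mutant means were 35.0% (n = 4), 21.2% (n = 6) and 17.7% (n = 6). At chr4:145170310-145173809 all 6 controls lay between 20% and 50%, and the 6 mutants were at 27.8%, 5%, 23.5%, 50%, 0% and 0% (embryos 11, 12, 14, 15, 18 and 19). That difference of -14.7 points had an adjusted p of 0.834 (limma), and mutant embryo 15 matched the highest control. The windows with the lowest control means were chr4:146556789-146560288 (0.455%, mutants 8.33%), chr4:147525837-147529336 (2.08%, mutants 2.91%) and chr4:146173524-146177023 (2.47%, mutants 6.11%).

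The 5 other named chromosome 4 windows with good coverage had middle levels that did not separate the groups. Control and mutant means were 8.35% and 12.5% at chr4:145308736-145312235, and 8.57% and 8.56% at chr4:145364927-145368426. They were 19.8% and 17.4% at chr4:145373186-145376685, 28.1% and 20.4% at chr4:146530480-146533979, and 16.1% and 24.9% at chr4:146562124-146565623. Each rested on 8 or 9 controls and 6 mutants, and the adjusted p lay between 0.834 and 1 (limma). At chr4:146562124-146565623 the controls ran from 0% to 28% and the mutants from 0% to 50%, and mutant embryos 14 and 19, at 40% and 50%, were above every control.

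Along the clusters no single trend appeared. In steps of 0.5 Mb, the first step of chromosome 2 (7 windows, up to 175399999) had a mean of 20.6% ± 9.01 in controls (SD, n = 7) and 5.03% ± 7.24 in mutants (SD, n = 6), a difference of -15.6 points, and it holds the window without overlap. The step from 176400000 (11 windows) differed by 1.62 points, the step from 176900000 (11 windows) by -8.36 and the step from 177400000 (10 windows) by -2.55. The lone window in the step from 175900000 was at 0 in 4 controls and had no mutant value. On chromosome 4 the 6 steps differed by 1.39, -11.7, 4.81, -1.50, -8.56 and -10.5 points from 145000000 onward. The direction thus alternated in the first part of that cluster, and the last 2 steps (18 and 10 windows) were lower in mutants, differences given as a description with no test. Across all windows, every mutant value was 0 in 14 of the 40 chromosome 2 windows and in 16 of the 71 on chromosome 4, and 8 and 9 windows had no mutant value. In 4 of the 14 and 4 of the 16 every control value was 0 as well. Among the tested windows, with at least 3 embryos per group, all mutants were at 0 in 4 of 12 and 5 of 42. The share over the whole table was not counted, so these counts do not show a trait of the clusters.

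**Figure D4:**
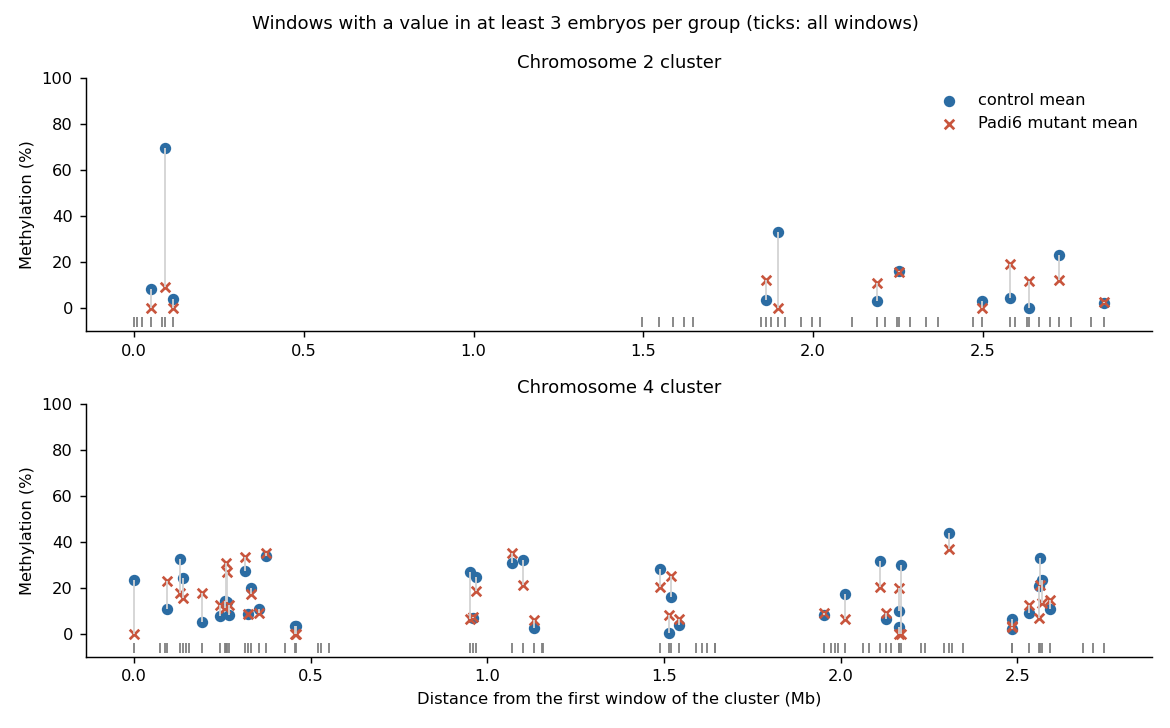
Mean methylation of controls (circles) and mutants (crosses) in each tested window, with 3 or more embryos per group (vertical axis, %), by distance from the first window of the cluster (horizontal axis, Mb); ticks under the points mark all windows of the cluster. The chromosome 2 window at 69.9% in controls and 9.17% in mutants lies near the start, and no other window shows groups without overlap.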

How the data were processed

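DNA methylation of single blastocysts was measured by bisulfite sequencing after the polyadenylated RNA of each embryo had been removed, per the labels' protocols. Per the submitters' processing notes, Trim Galore 0.4.4, Bismark 0.18.2 and build GRCm39 (mm39) were used. What the authors deposited is a methylation score in percent per promoter window and embryo, recorded here as a score because some values exceed 100. The way calls were combined in a window, and any coverage minimum, is not given in the sources used here. Of 54080 rows 46 repeated another row and were dropped. Of 491705 values 1594 (0.324%) were whole numbers above 100, 2 of them in the clusters. These were taken as percents without their decimal point and divided by 1000. No read counts are in the table, so the depth behind a value is unknown.

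An embryo's regional level was the plain mean over its windows. Clusters and 3 Mb tiles with at least 20 windows and values in at least 7 embryos per group were fitted together with limma 3.58.1 (R 4.3.3, lmFit and eBayes at default settings, no covariates). For the fits of densely covered embryos, sparsely covered embryos and embryos with at least 5 windows, that minimum was lowered to 3 embryos per group. Windows that had 3 or more embryos with a value in each group were fitted in a second limma model over the whole table. P-values were adjusted by the Benjamini-Hochberg method over all features of a fit, with a threshold of 0.05. The planned permutation test with 100000 resamples was run exactly because the groups held 9 embryos each. The regional and window fits were tried on the table's values shuffled between embryos within each row, with known shifts added. Shuffling removes level differences that run through a whole embryo, so the fits were not tried under those. The regional trial took only regions with a value in all 20 embryos, which leaves out the chromosome 2 cluster. The exact rank-sum and correlation tests were computed with NumPy 2.4.6, with ranks and adjustment from SciPy 1.17.1. Biopython 1.88 served for global alignment of promoters.

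Windows named in the text, for each chromosome, were the 6 with values in the most embryos (ranked by the smaller group), and the 3 with the highest and 3 with the lowest control mean among windows with at least 5 controls and 3 mutants, overlaps skipped. Members and gene lists were chosen with earlier results of these data known. The planned relation of CpG density to control level per window was not analysed here, because windows and gene tables are on different builds. Alternatives covered the windows used, the weighting, the fit, the handling of extreme values, coverage and each embryo left out.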

Additional observations from a re-analysis of the deposited data

Results flagged for a closer look

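Values standing apart from the rest of their group were looked for in 38 groups of 4 to 10 embryos, and 15 were found. The measure was the gap to the nearest value over the whole range, with Dixon's 95% limit. Values in these windows fall on coarse steps with many zeros. A group with 1 value above 0 and the rest at 0 is marked however small that value is. The limit's nominal rate of about 1 group in 20 therefore does not hold here, and no excess can be read from the count. The part of coverage in these values was not tested.

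On chromosome 4 the level of mutant embryo 17 was 66.7%, and the next mutant was at 20.2%. Embryo 17 had 3 windows there.

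In the chromosome 2 window chr2:174992791-174996290 control embryo 10 was at 26.1%, and the next control was at 71.4%. In chr2:176763113-176766612 mutant embryo 19 was at 50%, and in chr2:177757768-177761267 it was at 14.3%, with the other mutants at 0 in both. In chr2:177757768-177761267 control embryo 2 was at 10% and the next control at 2.27%. In chr2:177623994-177627493 control embryo 5 was at 100% and mutant embryo 14 at 50%. In chr2:177153526-177157025 control embryo 1 was at 50%.

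On chromosome 4, control embryo 8 was at 22.2% in chr4:147170942-147174441 and at 100% in chr4:146530480-146533979. Control embryo 10 was at 33.3% in chr4:145308736-145312235. In chr4:145364927-145368426 control embryo 5 was at 37.5% and mutant embryo 11 at 33.3%. Control embryo 2 was at 2.27% in chr4:146556789-146560288, where the other controls were at 0, and at 12.5% in chr4:146173524-146177023.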

How the results depend on the processing

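No alternative brought a cluster past the threshold, and the chromosome 2 difference stayed negative in each one run: -14.9 to -3.59 points over 10 alternatives (limma, adjusted p 0.314 to 0.745) and -10.7 to -7.22 with each embryo left out (adjusted p 0.207 to 0.465). Relative to the other windows it was -11.1 to -0.688, and -7.92 to -4.37 with each embryo left out. The chromosome 4 difference had no stable sign. It was -4.97 with at least 5 windows per embryo, -2.13 weighted by windows, 1.96 with values of 0 and 100 left out, 6.04 in windows at least 250 kb inside the limits, and -6.02 to 1.46 with each embryo left out, positive in 7 of 20 cases. Its relative difference was -2.16 with at least 5 windows per embryo, -0.851 in sparsely covered embryos, and -3.57 to 3.85 with each embryo left out. The cause was not tested. The chromosome 4 control level was 25.8% with values of 0 and 100 left out, as that removes the zeros. On chromosome 2 the regional fit was not run with those values left out, or over windows with 3 embryos per group, because its minimum of 20 windows or 7 embryos was not met. The difference between the clusters was -7.11 to -1.23 over 10 alternatives, which include those settings, and -5.70 to -1.66 with each embryo left out (exact permutation p 0.145 to 0.855). The number of member windows past the threshold was 0 to 1 with each embryo left out, 1 of them without control embryo 10.

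In densely covered embryos the sign of 8 named windows, none past the threshold, was the opposite: on chromosome 2 -2.45 (177757768), -1.59 (176763113) and 4.73 (177153526), and on chromosome 4 -0.651 (147170942), -1.42 (145308736), 2.35 (145364927), 7.49 (146530480) and -9.56 (145413412). With each embryo left out these ran from -2.45 to 2.29, -3.69 to 13, -11.9 to 10.7, -0.971 to 4.55, -3.35 to 7.27, -4.97 to 4.12, -13.6 to 2.57 and -4.56 to 9.42, in the same order. Signs also turned in 3 more windows with an embryo left out, from -23.3 to 8.33 (177623994), -8.93 to 1.91 (145373186) and -0.947 to 1.87 (147525837).

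No paired analysis was possible because the labels name no mother, litter or batch that would link a control embryo to a mutant embryo.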
